A study of Mus musculus with 13 samples.

Results

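Erythroblasts that carry Ter119, an antigen of maturing red cell precursors, together with CD71, the transferrin receptor, were compared between embryos with and without an intact Adar allele. The comparison rests on 5 of the 13 arrays of the series, chosen by sample title: 2 knockout arrays (embryos 10 and 11) and 3 control arrays (embryos 2, 13 and 15). Each array held total RNA of a flow-sorted gate from the liver of 1 fetus at E14.5, on the background given as C57JB6. In the knockout embryos the Adar genotype was fl/-, a floxed allele over a null allele, and in the controls it was fl/+, a floxed allele over an intact one. Every embryo, controls included, had 1 copy of Cre knocked into Epor (EpoRCre ki/+), the erythropoietin receptor gene, which drives deletion of the floxed allele in erythroid cells. The null allele is present in every cell of a knockout embryo. The R26 EYFP reporter allele was ki/+ in the 3 control embryos and +/+ in knockout embryos 10 and 11. Within these cells the reporter and the knockout therefore cannot be told apart except through other cells. The other 8 arrays, 3 knockout and 3 control arrays of the less mature Ter119- CD71+ cells and 2 control arrays of the more mature Ter119+ CD71med cells, entered the same fit and shared its estimate of the spread. Levels below are log2 signals from RMA, a method that corrects background, normalizes arrays to each other and summarizes probes into probe sets.

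ADAR1, the product of Adar, deaminates adenosines of double-stranded RNA to inosines. Unedited double-stranded RNA of the cell can be bound by the helicase sensor MDA5, which signals through MAVS to interferon genes, and interferons in turn switch on interferon-stimulated genes through STAT and IRF factors. Red cell precursors meanwhile run through their last divisions, load hemoglobin, remodel the membrane skeleton and clear their organelles, and the Ter119+ CD71+ gate holds cells in the middle of that course.

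The probe set of Adar measured 7.68 and 8.10 in knockout embryos 10 and 11, and 7.43, 7.72 and 8.37 in control embryos 2, 13 and 15. The groups overlapped, with a difference of 0.05 (SE 0.25, adjusted p = 0.973 in limma). Its sign was not settled: it was -0.16 when control embryo 2 or knockout embryo 11 was left out, and -0.01 when control embryo 13 was left out and with each array centred on its median. Whether its probes fall inside the deleted exons was not analysed here, so this level does not check the genotype labels.

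The 5 arrays had the profile of erythroblasts. Over 15 erythroblast markers, of which 1 fell, the mean was lowest in knockout embryo 10 (10.88), and both knockouts lay below the controls (11.39, 11.13 and 11.22), by less than 1 log2 unit. Tfrc, which encodes CD71, measured 12.15 and 12.19 against 12.52, 12.23 and 12.20. The knockout arrays were less alike than the controls. They differed from each other by a median of 0.247 per gene, where pairs of control arrays differed by 0.123 to 0.137, and their upper quartiles were 7.415 and 7.630 against 7.514 to 7.529. Xist, the X inactivation RNA of female cells, was high on every array but that of control embryo 15, and of 742 X-linked genes 7 rose and 2 fell. In bulk RNA of a sorted gate, fewer cells of a kind and less RNA per cell cannot be told apart.

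Of 19938 genes tested, limma called 510 between knockout and control Ter119+ CD71+ cells at an adjusted p under 0.05, or 2.56% of all genes. There were 295 higher (1.48%) and 215 lower (1.08%), and 2572 genes passed an unadjusted p of 0.05. The largest increases were far larger than the largest decreases: 29 genes rose by over 2 log2 units and 10 by over 3, against 4 that fell by over 2 and 0 by over 3. The median size of a called change was 0.89 among the increases and 0.82 among the decreases, and the smallest was 0.46. Among the 6646 genes of lowest mean level 9 rose and 3 fell, and among the 6646 of highest level 204 rose and 180 fell. The knockout and control arrays of all 510 called genes did not overlap, which held for 22.1% of all genes.

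**Figure D1:**
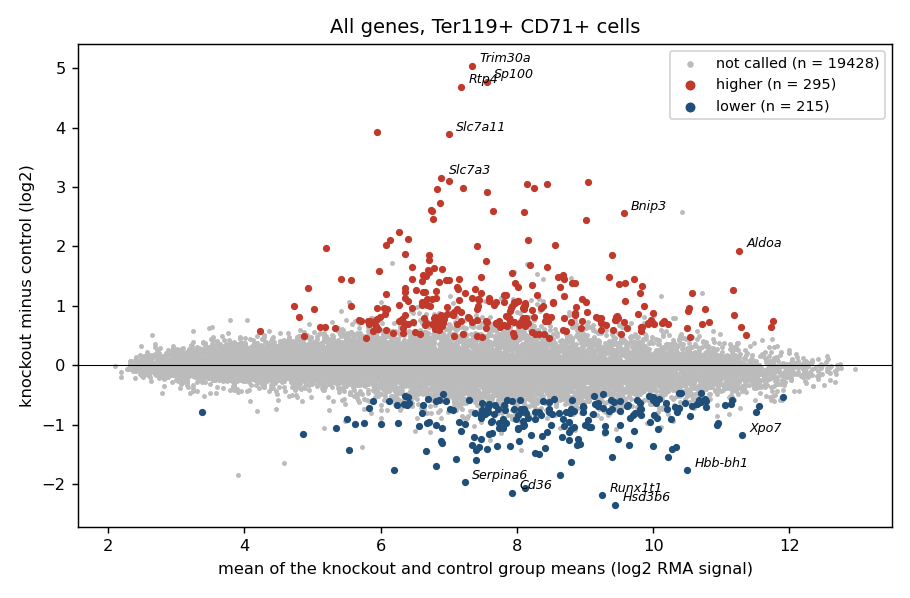
Knockout minus control difference of each gene in Ter119+ CD71+ cells (vertical axis, log2) against the mean of the knockout and control group means (horizontal axis, log2 RMA signal); red and blue points are called genes and grey points are not called. The 295 increases reach 5.04 (Trim30a), while the 215 decreases reach -2.35 (Hsd3b6).

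These counts depended on single arrays. Leaving out knockout embryo 10 left 162 calls, of which 137 were among the 510, and leaving out knockout embryo 11 gave 1546, of which 434 were. The count was 309 when control embryo 2 was left out and 294 when control embryo 15 was. In all 5 omissions 123 genes stayed called (0.617% of all genes), 98 of them higher and 25 lower. When the EYFP allele count entered the fit as a covariate, 17 genes passed (0.0853% of all genes), all higher: Ak4, Aldoa, Bnip3, Cth, Jun, Oas3, P4ha1, Pfkp, Rtp4, Samd9l, Slc7a11, Slc7a3, Sp100, Spred2, Stk32a, Trim30a and Xaf1. The other called genes named below did not pass with that covariate, but all 510 kept their sign. The median size of their differences was 0.86 with and without the covariate, and their median SE was 0.28 with it and 0.17 without. Ifi27 was 3.08 in both fits (adjusted p = 0.154 with the covariate), and Hsd3b6 was -2.30 with it (adjusted p = 0.092) and -2.35 without. Other genes moved more. With the covariate Hbb-bh1 went from -1.77 to -0.87 and Trim12c from 1.87 to 1.23, while Snx22 went from -1.60 to -1.97 and Ier3 from -1.49 to -1.88. In that fit the Ter119- CD71+ array of knockout embryo 1, the 1 knockout with the reporter, alone separates reporter from knockout.

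Genes that interferon is known to induce made up 11 of the 15 largest increases. Trim30a, a tripartite motif gene that restrains innate signalling, measured 10.28 and 9.44 in knockout embryos 10 and 11 against 4.48, 5.01 and 4.95 in control embryos 2, 13 and 15. The lowest knockout array lay above the highest control array by more than the spread within either group. The rise was 5.04 (SE 0.27, adjusted p = 3.14e-07), or 33.0-fold. Sp100, a component of PML nuclear bodies, was 9.96 and 9.91 against 4.97, 5.07 and 5.47, a rise of 4.77 (SE 0.17, adjusted p = 4.12e-09) or 27.2-fold. Its knockout arrays were nearly equal (SD 0.04). Rtp4, a chaperone of G protein-coupled receptors that interferon induces, was 9.76 and 9.30 against 4.92, 4.73 and 4.86, and rose by 4.69 (SE 0.23, adjusted p = 1.22e-07). Samd9l, an antiviral factor that restrains translation, was 8.24 and 7.56 against 3.47, 4.35 and 4.12, and rose by 3.92 (SE 0.28, adjusted p = 5.85e-06). In each of these the control arrays lay among the dimmer genes and the knockout arrays well above them.

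**Figure D2:**
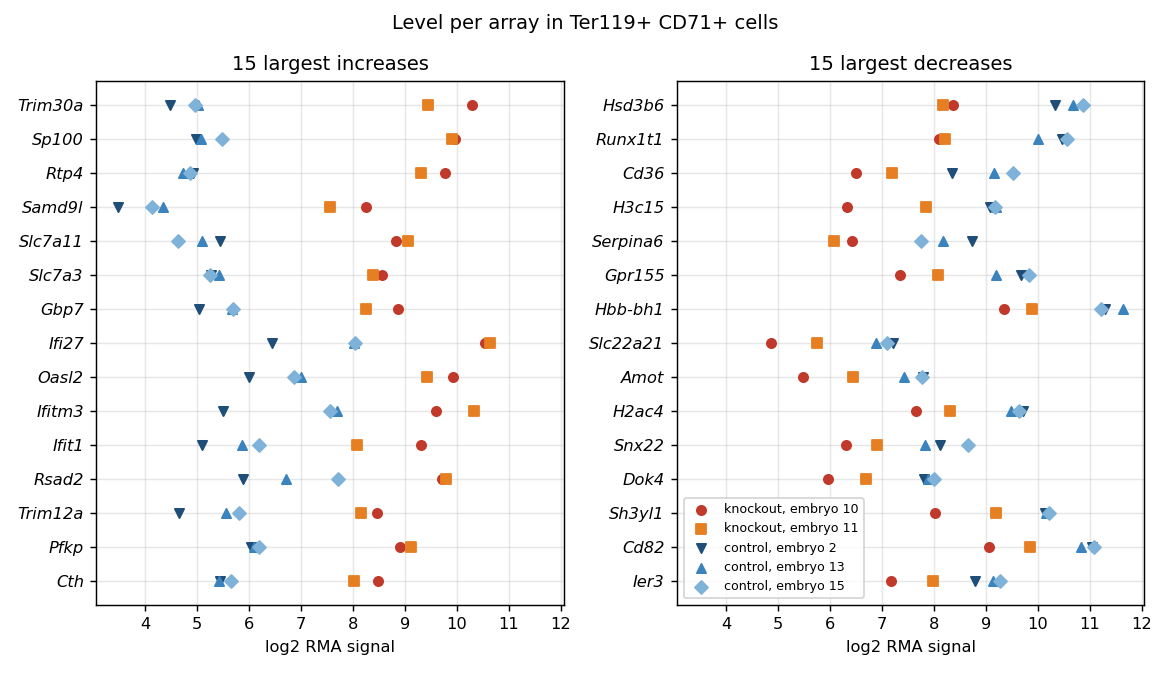
Level of the 15 genes with the largest increase and the 15 with the largest decrease (rows) on each of the 5 Ter119+ CD71+ arrays (horizontal axis, log2 RMA signal); each marker is 1 array. The 30 genes were chosen among called genes whose knockout and control arrays are separate, so the gap itself is no result. The control arrays of Ifitm3 run from 5.49 (embryo 2) to 7.69 (embryo 13).

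Some interferon-stimulated genes varied widely among the controls, with embryo 2 lowest. Ifitm3, which encodes a membrane protein that blocks entry of enveloped viruses, measured 9.60 and 10.33 in the knockout arrays and 5.49, 7.69 and 7.56 in the controls. Its difference of 3.05 had a wide error (SE 0.52, adjusted p = 0.0062), and was 2.33 to 3.44 over the omissions. Ifi27, a mitochondrial interferon-induced gene, was 10.53 and 10.63 against 6.44, 8.02 and 8.03 (3.08, SE 0.38, adjusted p = 0.000575). Rsad2, which encodes viperin, was 9.70 and 9.79 against 5.89, 6.71 and 7.70 (2.98, SE 0.40, adjusted p = 0.00115). The control arrays of these genes were spread widely. That they lay below both knockout arrays was required for a place among the largest increases.

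Over the 7 lists of interferon-stimulated genes as 1 set, 29 of 105 measured genes rose, 2 fell and 74 were not called, with a median of 0.26 where that of all genes was 0.02. Over all genes 1.48% rose and 1.08% fell, the shares beside which the counts of each list below are to be read. In the OAS family, whose members make the 2-5A messenger that activates RNase L, 6 of 11 rose and 0 fell (median 0.65). Oasl2 was 9.92 and 9.43 against 5.99, 7.0 and 6.87 and rose by 3.06 (SE 0.33, adjusted p = 0.000199), and Oas3 was 7.24 and 7.61 against 5.84, 5.86 and 6.07 and rose by 1.5 (SE 0.15, adjusted p = 0.000137). Both knockout arrays lay above all controls in both genes, with the controls of Oas3 close together. Oas1a rose by 1.52 (SE 0.19), Oas1b by 1.44 (SE 0.24) and Oas2 by 1.30 (SE 0.15). The call of Oas1c (0.65) ended without knockout embryo 11 (0.42, adjusted p = 0.139), control embryo 2 (0.53, adjusted p = 0.149) or control embryo 13 (0.67, adjusted p = 0.0698).

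Of 11 interferon-linked TRIM genes 5 rose (median 1.12), and all 5 lie in the Trim30, Trim12 and Trim34 families, whose copies are similar enough that probe sets can share signal. Besides Trim30a these were Trim12a at 2.97 (SE 0.34, adjusted p = 0.000359), Trim30d at 1.97 (SE 0.27), Trim12c at 1.87 (SE 0.33) and Trim34a at 1.59 (SE 0.18). Without knockout embryo 10 Trim12c was 1.73 and not called (adjusted p = 0.115). In the IFIT and viperin list 2 of 6 rose. Ifit1, an RNA cap sensor, measured 9.31 and 8.08 against 5.10, 5.86 and 6.18, and rose by 2.98 (SE 0.33, adjusted p = 0.000285). Ifit2 of the same family was not called, at 6.14 and 7.11 against 6.71, 7.22 and 7.04, with a difference of -0.37 (SE 0.31, adjusted p = 0.738) that became 0.12 without knockout embryo 10.

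Among 13 interferon-inducible GTPases, which attack pathogen vacuoles, 1 rose. This was Gbp7, at 8.87 and 8.25 against 5.04, 5.66 and 5.68, a rise of 3.10 (SE 0.28, adjusted p = 4.41e-05) in a list whose median was 0.21. Of 8 PARP and Dtx3l genes 2 rose, the mono-ADP-ribosyltransferase genes Parp14 by 2.01 (SE 0.24, adjusted p = 0.000423) and Parp12 by 1.76 (SE 0.34, adjusted p = 0.014). Parp12 was 1.92 and not called without knockout embryo 10 (adjusted p = 0.0834). In the ISGylation list of 8 genes the ligase gene Herc6 rose by 1.38 (SE 0.20, adjusted p = 0.00179) and Ube2l6, the conjugating enzyme of the same modifier, fell by 0.68 (SE 0.16, adjusted p = 0.0405). The call of Ube2l6 ended without knockout embryo 10 (adjusted p = 0.407), control embryo 2 (adjusted p = 0.0956) or control embryo 15 (adjusted p = 0.16). In these controls Ube2l6 was 2.96 higher in Ter119+ CD71med than in Ter119- CD71+ cells. Isg15, the modifier itself, shares its probe set with another gene and was not analysed here.

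Among 49 other interferon-stimulated effectors 12 rose and 1 fell, with a median of 0.29. After Sp100, Rtp4, Samd9l, Ifi27 and Ifitm3 came Xaf1, an inhibitor of the apoptosis inhibitor XIAP, at 2.60 (SE 0.21, adjusted p = 1.22e-05), and the galectin gene Lgals9 at 2.58 (SE 0.24, adjusted p = 6.21e-05). Lgals9 was 9.83 and 8.96 against 6.57, 6.86 and 7.0, so its knockout arrays were both high but unequal. Lgals3bp rose by 1.66 (SE 0.22, adjusted p = 0.00123) and Tdrd7, an antiviral tudor domain gene, by 1.26 (SE 0.21), a call that ended without knockout embryo 10 (1.23, adjusted p = 0.0665). The gene that fell was Sp140, a chromatin reader of the family of Sp100, at 7.81 and 8.71 against 9.88, 9.35 and 9.51 (-1.32, SE 0.26, adjusted p = 0.0141). It was -0.87 without knockout embryo 10 (adjusted p = 0.214) and not called without control embryo 2 (adjusted p = 0.0573).

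Sensors of double-stranded RNA were among the increases. In the RNA sensing list 4 of 21 rose and 0 fell (median 0.19). Dhx58, which encodes the regulatory helicase LGP2, was 6.10 and 6.18 against 4.80, 4.6 and 4.68, a rise of 1.45 (SE 0.23, adjusted p = 0.00372) with both groups tight. Ddx58, which encodes RIG-I, rose by 1.62 (SE 0.29, adjusted p = 0.00842), and Ifih1, which encodes MDA5, was 10.20 and 9.98 against 7.71, 8.82 and 9.30 and rose by 1.48 (SE 0.33, adjusted p = 0.0285). The controls of Ifih1 spread widely, with embryo 15 nearest the knockouts. Without knockout embryo 10 neither was called (Ddx58 1.29, adjusted p = 0.147; Ifih1 1.38, adjusted p = 0.237). Irf7, an interferon-inducible transcription factor, rose by 1.12 (SE 0.27, adjusted p = 0.0432). It was not called without knockout embryo 10 (adjusted p = 0.18), knockout embryo 11 (adjusted p = 0.0974), control embryo 2 (adjusted p = 0.151) or control embryo 13 (adjusted p = 0.114). Mavs, the adaptor of these helicases, was -0.72 (SE 0.22, adjusted p = 0.116). Eif2ak2, which encodes the double-stranded RNA kinase PKR, was 9.50 and 9.75 against 8.23, 8.95 and 9.66, overlapping groups with a difference of 0.67 (SE 0.32, adjusted p = 0.409).

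Of 14 interferon genes limma called 0, and 0 at an unadjusted p under 0.05, with differences from -0.23 to 0.24. Of 21 genes of the interferon receptors, JAK, STAT and IRF factors, Irf7 was the single call (median 0.04). Among 15 genes of MHC class I presentation B2m, its constant light chain, rose by 0.65 (SE 0.15, adjusted p = 0.0305) in a list with a median of 0.10. The call of B2m ended without knockout embryo 10 (adjusted p = 0.226), control embryo 2 (adjusted p = 0.106) or control embryo 15 (adjusted p = 0.0505). Of 6 immunoproteasome genes limma called 0, and 3 at an unadjusted p under 0.05 (median -0.01). Of 31 constitutive proteasome genes Psmb6 fell by 0.56 (SE 0.12, adjusted p = 0.0181), not so without knockout embryo 10 (-0.43, adjusted p = 0.194) or control embryo 15 (adjusted p = 0.0779). In the list of 8 RNA editing enzymes Apobec1, a cytidine deaminase gene, rose from 5.02, 5.25 and 5.14 in the controls to 7.63 and 7.15 (2.25, SE 0.20, adjusted p = 3.24e-05).

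Promoter sequence was examined for the interferon-stimulated response element, because it is the site that the STAT and IRF complex of type I interferon signalling binds. RefSeq promoters of build GRCm38.p6, each 300 bases with 250 before the gene start, were held for 15563 of the measured genes, and a gene was counted where any window of it had a match on either strand. Its core, written here as GAAA, any 2 bases and GAAA, occurred in 3.89% of all genes, in 9.87% of the 233 called higher and in 3.53% of the 170 called lower. It occurred in 15 of 24 genes of the interferon-stimulated lists that rose (62.5%) and in 19 of 53 of those lists that were not called (35.8%). The lists were drawn up from genes known to be induced by interferon, so these shares are no test of interferon signalling. The 15 include Trim12a, Trim12c, Trim30a, Trim30d and Trim34a, whose similar copies can share probe signal, so they are not all independent. A match is a string of letters, not a site shown to be bound. Matches of the core overlapped those of the 2 other motifs described below in 3 and 2 of 19116 windows. Of the 15 largest increases 11 had a window, and 6 of these held the core (54.5%). Stretches of 60 bases are shown 5′ to 3′ on the gene's strand for 5 genes called higher, picked among those with a match. The matched letters are in capitals, to show where the core lies:
Trim30a: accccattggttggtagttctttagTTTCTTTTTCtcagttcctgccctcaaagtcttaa
Ifit1: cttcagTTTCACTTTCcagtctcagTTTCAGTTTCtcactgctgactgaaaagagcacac
Rsad2: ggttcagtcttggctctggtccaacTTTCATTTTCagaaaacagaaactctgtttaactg
Gbp7: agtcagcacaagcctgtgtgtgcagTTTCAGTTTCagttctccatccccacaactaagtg
Oas3: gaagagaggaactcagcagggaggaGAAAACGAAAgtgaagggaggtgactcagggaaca
They lie at chr7:104465195-104465254 (minus strand) for Trim30a, chr19:34640779-34640838 (plus) for Ifit1, chr12:26456538-26456597 (minus) for Rsad2, chr3:142530258-142530317 (plus) for Gbp7 and chr5:120777700-120777759 (minus) for Oas3. Ifit1 has 2 matches in its stretch and each of the other 4 has 1. In Oas3 the core reads in the forward direction and in the other 4 it reads on the opposite strand.

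Genes of amino acid supply formed the next group of large increases. Slc7a11, the cystine and glutamate exchanger, was 8.83 and 9.06 against 5.44, 5.10 and 4.63, and rose by 3.89 (SE 0.22, adjusted p = 4.41e-07) or 14.8-fold. Slc7a3, a transporter of cationic amino acids, was 8.55 and 8.39 against 5.26, 5.42 and 5.25, and rose by 3.16 (SE 0.20, adjusted p = 2.24e-06). Both genes were low in all 3 controls and high in both knockouts. With Slc7a7, at 1.24 (SE 0.14, adjusted p = 0.000407), these were the 3 that rose among 20 amino acid transporter genes. The list's median was 0.10, and 0 fell. Of 20 targets of ATF4 and CHOP, the transcription factors of the integrated stress response, 5 rose and 0 fell (median 0.44). Cth, which makes cysteine from cystathionine, was 8.47 and 8.01 against 5.43, 5.41 and 5.65 (2.74, SE 0.21, adjusted p = 8.63e-06). Nupr1, a stress-induced chromatin protein, was 9.06 and 8.84 against 6.46, 6.35 and 6.24 (2.60, SE 0.25, adjusted p = 9.41e-05). Chac1, which degrades glutathione, rose by 1.55 (SE 0.22, adjusted p = 0.00186) and Trib3, a pseudokinase that feeds back on ATF4, by 1.41 (SE 0.21, adjusted p = 0.00268).

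Other genes of the pathway had weaker support. The fifth call among ATF4 targets, Cebpg (0.57), was lost in each of the 5 omissions (adjusted p from 0.0806 with control embryo 2 left out to 0.102 with control embryo 15 left out). The messenger of Atf4, which is regulated mainly in translation, was 9.85 and 9.99 against 10.35, 9.95 and 10.28 (-0.28, SE 0.13, adjusted p = 0.406). Ddit3, which encodes CHOP, was 0.73 (SE 0.21, adjusted p = 0.0986). Of 8 genes of the eIF2alpha kinases and phosphatase subunits limma called 0, and 1 at an unadjusted p under 0.05, with a median of -0.10. In the list of 16 genes for serine, asparagine and one-carbon synthesis, which also holds some neighbouring enzymes, 4 rose and 0 fell (median 0.27). Psph, the last enzyme of serine synthesis, rose by 0.79 (SE 0.13, adjusted p = 0.00596) and Shmt2, the mitochondrial serine hydroxymethyltransferase, by 0.70 (SE 0.13, adjusted p = 0.0123). The calls of Got1 (0.83), an aspartate aminotransferase gene, and Aldh18a1 (0.94), a gene of proline synthesis, were less stable. Got1 was called without control embryo 13 and not without knockout embryo 10 (adjusted p = 0.0599), knockout embryo 11 (adjusted p = 0.0881), control embryo 2 (adjusted p = 0.0883) or control embryo 15 (adjusted p = 0.085). Aldh18a1 was called in none of the 5 omissions, with adjusted p from 0.0571 (control embryo 15 left out) to 0.146 (knockout embryo 10 left out).

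Of 18 cytosolic aminoacyl tRNA synthetase genes, which charge tRNAs, 2 rose with small differences: Eprs by 0.51 (SE 0.11) and Sars by 0.48 (SE 0.11). Neither Eprs nor Sars was called without knockout embryo 10 (adjusted p = 0.237 and 0.147), control embryo 2 (adjusted p = 0.101 and 0.0804) or control embryo 15 (adjusted p = 0.0585 and 0.0958), nor Sars without control embryo 13 (adjusted p = 0.0774). In the list of 21 chaperones of the unfolded protein response the disulfide oxidase gene Ero1a was the single call, at 10.43 and 10.12 against 8.87, 8.97 and 8.82 (1.38, SE 0.15, adjusted p = 0.000275), while the list's median was -0.05. Among 21 antioxidant genes of the NRF2 response 2 rose, Slc7a11 and the heme oxygenase gene Hmox1 at 1.31 (SE 0.20, adjusted p = 0.00277), with a median of -0.14.

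The C/EBP and ATF response element, TGATGNAA, is the composite site that ATF4 binds with a C/EBP partner. It occurred in 3.62% of all genes with a promoter window. Among the called ATF4 targets and Slc7a11, which was added to that list for this count, 5 had a window. The element occurred in 4 of these 5 (80.0%): Chac1, Nupr1, Slc7a11 and Trib3. The list was drawn up from known ATF4 targets, so this share is no test of ATF4 binding, and targets not called were not counted. Among all genes called higher the share was 6.44%, and among those called lower 2.94%. Stretches of 60 bases of 3 of them are shown in the same way, because these genes carry the larger increases:
Slc7a11: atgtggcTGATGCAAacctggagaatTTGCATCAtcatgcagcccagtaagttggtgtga
Nupr1: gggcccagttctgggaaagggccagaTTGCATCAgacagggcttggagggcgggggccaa
Chac1: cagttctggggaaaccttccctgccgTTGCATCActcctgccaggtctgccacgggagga
They lie at chr3:50443627-50443686 (minus strand), chr7:126625547-126625606 (minus) and chr2:119351023-119351082 (plus). Slc7a11 has 2 matches, in opposite directions, and the other genes have 1 each. Its matches overlapped those of the hypoxia motif below in 3 of 19116 windows.

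Of 25 glycolysis and hypoxia genes 10 rose and 0 fell, with a median of 0.44, where 1.48% of all genes rose. Pfkp, a phosphofructokinase subunit gene, was 8.90 and 9.12 against 6.04, 6.09 and 6.18, and rose by 2.91 (SE 0.21, adjusted p = 5.85e-06) or 7.54-fold. Bnip3, a mitophagy receptor gene induced by hypoxia, was 10.90 and 10.79 against 8.33, 8.09 and 8.44 (2.56, SE 0.20, adjusted p = 8.63e-06). P4ha1, a prolyl hydroxylase of collagen, was 9.56 and 9.59 against 7.66, 7.36 and 7.64 (2.02, SE 0.15, adjusted p = 5.85e-06). In these 3 genes each group was tight and the groups lay about 2 to 3 log2 units apart. Aldoa, which encodes an aldolase, was already bright in the controls (10.19, 10.28 and 10.42) and reached 12.32 and 12.13 in the knockouts, a rise of 1.93 (SE 0.14, adjusted p = 7.13e-06).

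Other enzymes of the glycolytic chain rose by less. Pgk1 rose by 1.27 (SE 0.13, adjusted p = 0.000137), Pgam1 by 0.99 (SE 0.13), Tpi1 by 0.96 (SE 0.15), Pkm by 1.39 (SE 0.23) and Ldha by 0.75 (SE 0.13), and Vegfa, the angiogenic factor, by 1.45 (SE 0.20, adjusted p = 0.00146). Pkm and Ldha were not called without knockout embryo 10 (1.31, adjusted p = 0.0748, and 0.75, adjusted p = 0.0738). Hk2, a hexokinase gene, was 6.84 and 6.22 against 5.67, 5.44 and 5.30, apart from the controls but just short of the threshold (1.06, SE 0.26, adjusted p = 0.0509). Controls differed in these genes along maturation: Pgk1 was 0.99 and Aldoa 1.54 lower in Ter119+ CD71med than in Ter119- CD71+ cells, on arrays of the same embryos that are not in the comparison. The core of the hypoxia response element, ACGTG, occurred in the windows of 8 of these 10 genes, against 24.4% of all genes. It is short, and occurred in 36.5% of the genes called higher and in 33.5% of those called lower. The list was drawn up from known members of these pathways, so the share in it is no test of hypoxia signalling. Bnip3 was also the single call among 25 genes of mitophagy and autophagy (median -0.02).

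The decreases were smaller and named different functions. Hsd3b6, a steroid dehydrogenase gene, was 8.37 and 8.18 in the knockout arrays against 10.33, 10.68 and 10.86 in the controls (-2.35, SE 0.25, adjusted p = 0.000188), or 5.09-fold lower. Runx1t1, the transcriptional corepressor known as ETO, was 8.10 and 8.21 against 10.47, 10 and 10.56 (-2.19, SE 0.20, adjusted p = 4.11e-05). Cd36, a fatty acid transporter and surface marker of erythroid precursors, was 6.50 and 7.20 against 8.34, 9.16 and 9.52 (-2.15, SE 0.28, adjusted p = 0.000811). All 3 kept their call in the 5 omissions, and all 3 belong to genes that rise with maturation in controls: Ter119+ CD71med cells had 5.81 more Hsd3b6, 3.91 more Runx1t1 and 4.39 more Cd36 than Ter119- CD71+ cells. Serpina6, which encodes corticosteroid-binding globulin, was 6.43 and 6.07 against 8.74, 8.18 and 7.75 (-1.97, SE 0.32, adjusted p = 0.00456). With Hsd3b6 it made the 2 that fell among 12 genes linked to glucocorticoids (median -0.03).

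Serpina6 is known as a liver gene, and hepatocyte markers are given beside it. Over 15 such markers the mean level was 6.15 and 5.78 in the knockouts against 6.53, 6.38 and 6.34 in the controls, the arrays did not overlap in 10 (22.1% of all genes), the median difference was -0.38, and 1 was called. That was Apoa1, an apolipoprotein gene, at -0.60 (SE 0.13, adjusted p = 0.0254). Its call ended without knockout embryo 11 (-0.38, adjusted p = 0.0919), control embryo 2 (adjusted p = 0.0793), control embryo 13 (adjusted p = 0.0551) or control embryo 15 (adjusted p = 0.085). Alb, which encodes albumin, was 8.56 and 7.64 against 9.40, 8.99 and 9.08 (-1.05, SE 0.35, adjusted p = 0.159). The part of hepatocyte RNA in these values was not tested.

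Other large decreases were Gpr155 at -1.85 (SE 0.25), a lysosomal cholesterol sensor gene, Amot at -1.70 (SE 0.23), the angiomotin gene of Hippo signalling, Dok4 at -1.58 (SE 0.17), an adaptor gene of tyrosine kinases, Cd82 at -1.54 (SE 0.22), a tetraspanin gene, and Ier3 at -1.49 (SE 0.21), an early response gene. These 5 stayed called in each omission. Slc22a21 (-1.76), an organic cation transporter gene, Snx22 (-1.60), a sorting nexin gene, and Sh3yl1 (-1.55) did not without knockout embryo 10 (-1.32, adjusted p = 0.0665; -1.30, adjusted p = 0.0609; -0.96, adjusted p = 0.226), nor Sh3yl1 without control embryo 15 (adjusted p = 0.0552). In each of the 8 genes both knockout arrays lay below the 3 controls, which the choice of the largest changes required. Knockout embryo 10 was the lower of the knockout arrays. In the list of 18 fatty acid handling genes 3 fell and 0 rose: Cd36, the lipid droplet coat gene Plin2 at 9.35 and 9.95 against 10.85, 11.04 and 11.17 (-1.37, SE 0.16, adjusted p = 0.000359), and the desaturase gene Scd1 (-1.35, SE 0.26, adjusted p = 0.013; -1.13 and adjusted p = 0.181 without knockout embryo 10). Of 19 genes of cholesterol synthesis and uptake limma called 0, and 4 at an unadjusted p under 0.05, with a median of -0.22.

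In the list of late erythroid genes 3 of 27 fell and 0 rose, where 1.08% of all genes fell. By value 25 were below 0 (median -0.36), against 44.5% of all genes. Some lists outside maturation also lay mostly below 0: 29 of 31 constitutive proteasome genes (median -0.23), 33 of 40 respiratory chain genes and 32 of 38 DNA replication genes. Without knockout embryo 10 the medians of these 3 lists were -0.04, 0.08 and -0.02, where that of the late erythroid genes was -0.30. Without knockout embryo 11 they were -0.45, -0.41 and -0.32, and that of the late erythroid genes -0.42. Other lists outside maturation stayed below 0 in both omissions. The median of 32 mitosis genes was -0.24 without knockout embryo 10 and -0.37 without knockout embryo 11. That of 15 hepatocyte markers was -0.62 and -0.19. Xpo7, a nuclear transport receptor required for terminal maturation, was 10.85 and 10.60 against 11.50, 12.01 and 12.19 (-1.18, SE 0.17, adjusted p = 0.00236), and its call held in the 5 omissions. Tmcc2 (-0.80) was not called without knockout embryo 10 (adjusted p = 0.192) or control embryo 15 (adjusted p = 0.0888). Trim10 (-0.78) was called without knockout embryo 11 and lost without knockout embryo 10 (adjusted p = 0.377), control embryo 2 (adjusted p = 0.0882), control embryo 13 (adjusted p = 0.0703) or control embryo 15 (adjusted p = 0.106). Bpgm, the 2,3-bisphosphoglycerate synthase of red cells, was -0.59 (SE 0.17, adjusted p = 0.0893).

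Of 17 heme synthesis genes 1 fell, the mitochondrial carrier gene Slc25a39 at -0.64 (SE 0.16, adjusted p = 0.0481), and 16 were below 0 (median -0.34). That call ended without knockout embryo 10 (adjusted p = 0.185), knockout embryo 11 (adjusted p = 0.0916), control embryo 2 (adjusted p = 0.11) or control embryo 15 (adjusted p = 0.186). Alas2, the rate-limiting erythroid enzyme, was 11.61 and 11.58 against 12.28, 12.01 and 12.27 (-0.59, SE 0.16, adjusted p = 0.0721), below all controls but not called. The red cell membrane skeleton had 1 call, Tmcc2, and 18 of 19 genes below 0 (median -0.28). Its members Epb42, a membrane skeleton anchor, and Slc4a1, the anion exchanger, were -0.59 (SE 0.15, adjusted p = 0.057) and -0.28 (SE 0.14, adjusted p = 0.469). Among 20 red cell surface antigens and channels 3 fell (median -0.35): Cd36, the Dombrock antigen gene Art4 at -1.34 (SE 0.22, adjusted p = 0.00498) and the water channel gene Aqp1 at -0.86 (SE 0.20, adjusted p = 0.0359). Art4 was not called without knockout embryo 10 (-0.92, adjusted p = 0.0733). Aqp1 was not called without knockout embryo 10 (adjusted p = 0.255), knockout embryo 11 (adjusted p = 0.0505), control embryo 2 (adjusted p = 0.0662) or control embryo 15 (adjusted p = 0.113).

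Of 23 erythroid transcription factors 3 fell and 0 rose (median -0.21), where 1.08% of all genes fell: Runx1t1, Nfe2, a subunit of the globin locus factor NF-E2, at -0.74 (SE 0.14, adjusted p = 0.0107), and Lyl1 at -0.63 (SE 0.12, adjusted p = 0.0147). Nfe2 and Lyl1 were not called without knockout embryo 10 (adjusted p = 0.148 and 0.174), nor Lyl1 without control embryo 2 (adjusted p = 0.0575). Gata1 and Klf1, the master factors of the lineage, were -0.51 (SE 0.19, adjusted p = 0.249) and -0.41 (SE 0.13, adjusted p = 0.159). Epor, the locus that carries Cre, was 8.38 and 8.70 against 9.34, 8.94 and 9.48 (-0.72, SE 0.20, adjusted p = 0.0954). Of 5 globin genes measured 1 fell, the embryonic Hbb-bh1, at 9.34 and 9.89 against 11.29, 11.64 and 11.22 (-1.77, SE 0.33, adjusted p = 0.0107; -1.49 and adjusted p = 0.164 without knockout embryo 10). The other embryonic globins had positive differences that did not pass: Hba-x was 0.61 (SE 0.16, adjusted p = 0.0721) and Hbb-y 0.80 (SE 0.39, adjusted p = 0.418). In Ter119- CD71+ cells Hba-x fell by 0.90, and the difference of 1.51 between the populations did not pass (adjusted p = 0.0604). Near-identical globin copies can share probe signal.

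Among 15 iron handling genes the ferritin receptor gene Ncoa4 fell by 0.54 (SE 0.11, adjusted p = 0.0199) and Erfe, the erythroid hormone that lowers hepcidin, rose by 0.48 (SE 0.12, adjusted p = 0.0488). The call of Ncoa4 ended without knockout embryo 10 (adjusted p = 0.116), control embryo 2 (adjusted p = 0.0737) or control embryo 15 (adjusted p = 0.0832). That of Erfe ended without knockout embryo 10 (0.37, adjusted p = 0.383), control embryo 2 (adjusted p = 0.1), control embryo 13 (adjusted p = 0.0953) or control embryo 15 (adjusted p = 0.165). In the Epo and Kit signalling list 2 of 16 rose: Spred2, a brake on Ras signalling, at 8.82 and 8.97 against 7.59, 7.67 and 7.39 (1.35, SE 0.12, adjusted p = 3.36e-05), and the sialomucin gene Podxl at 1.68 (SE 0.21, adjusted p = 0.000647). Myc was the single call among 19 stem and early progenitor genes, at 9.34 and 9.62 against 8.38, 8.69 and 8.67 (0.90, SE 0.14, adjusted p = 0.00456). Both lists had medians near that of all genes (0.10 and 0.04).

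The called genes were set against the control maturation course, measured on control Ter119+ CD71med and Ter119- CD71+ arrays that are not part of the comparison but come from the same control embryos. Between those populations 18.1% of all genes were higher and 20.1% lower in the mature cells. Of the 295 genes higher in knockout cells, 8.81% were higher and 67.5% lower in the mature controls, with a median of -0.89. Of the 215 lower in knockout cells, 73.0% were higher and 6.05% lower there, with a median of 1.10. Among the 98 increases and 25 decreases kept in all omissions, 60.2% were lower and 88.0% higher in the mature controls. Over all genes, the position of each array along that course was also computed. On a scale from 0 at the Ter119- CD71+ controls to 1 at the Ter119+ CD71med controls, knockout embryos 10 and 11 stood at 0.576 and 0.393 and control embryos 2, 13 and 15 at 0.620, 0.509 and 0.546. Knockout embryo 11 lay below every control and knockout embryo 10 among them. The difference was -0.073, against a control SD of 0.056 (exact two-sided permutation test, p = 0.6, n = 2 and 3), where the smallest p that these 10 splits allow is 0.2, so the test could not pass. Without knockout embryo 11 it was 0.018 and without knockout embryo 10 it was -0.165.

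**Figure D3:**
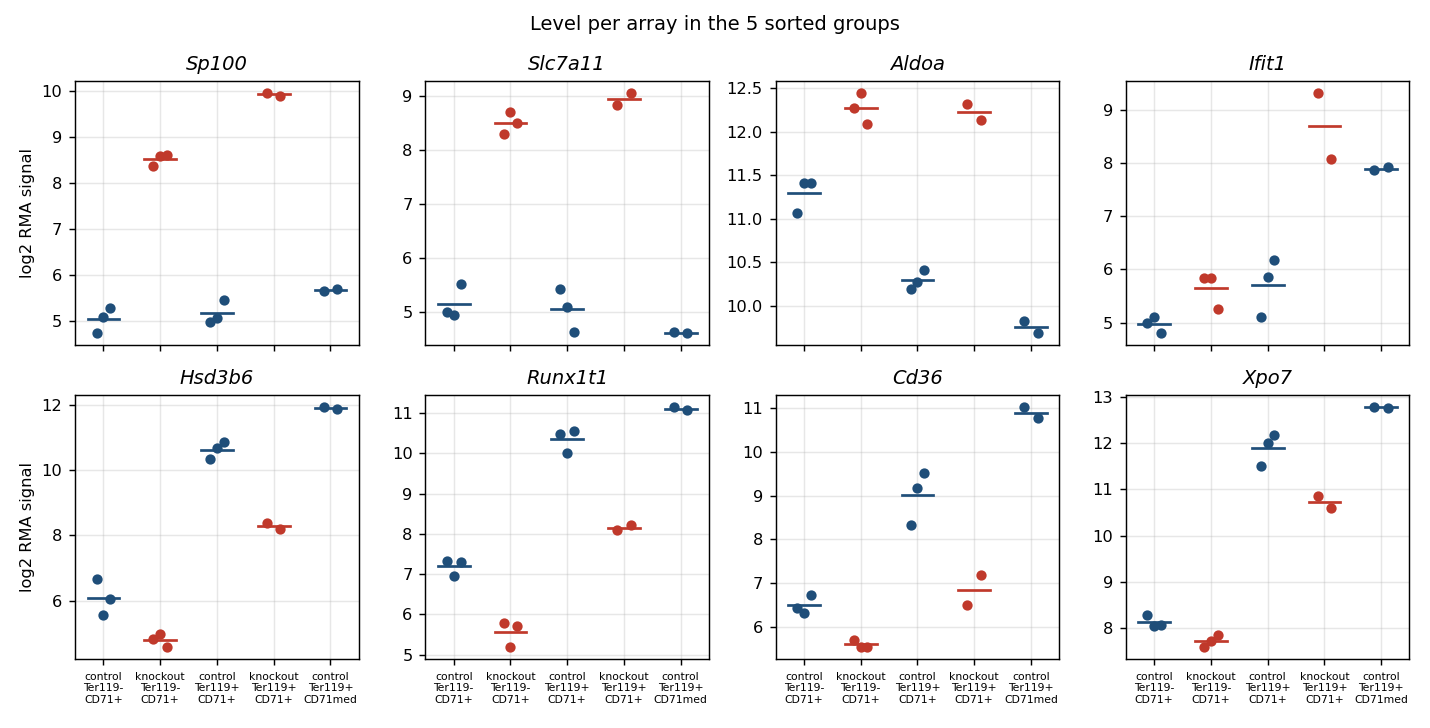
Level of 8 genes (vertical axes, log2 RMA signal) in the 5 sorted groups, with each point an array and each line the group mean; blue is control and red is knockout. Hsd3b6, Runx1t1, Cd36 and Xpo7 rise from Ter119- CD71+ to Ter119+ CD71med controls and are lower in knockout Ter119+ CD71+ cells, while Sp100 and Slc7a11 are high in both knockout populations.

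Replication-dependent histone genes were all lower by value: 11 of 19 fell and 0 rose, where 1.08% of all genes fell. The median of -0.77 was the lowest of any list outside the sex-linked genes. The size rested on knockout embryo 10, since the median was -0.53 without it and -1.08 without knockout embryo 11. H2ac4 was 7.66 and 8.31 against 9.72, 9.49 and 9.63 (-1.63, SE 0.20, adjusted p = 0.000532), and was the member that stayed called in every omission. H2bc8 was -1.41 (SE 0.22, adjusted p = 0.00416), H4c8 -1.27 (SE 0.22), H4c3 -1.10 (SE 0.23), H1f2 -1.01 (SE 0.20) and H4c6 -1.0 (SE 0.16). Without knockout embryo 10 none of these 5 was called (H2bc8 -1.27, adjusted p = 0.0735; H4c8 -1.01, adjusted p = 0.132; H4c3 -0.58, adjusted p = 0.213; H1f2 -0.59, adjusted p = 0.179; H4c6 -0.77, adjusted p = 0.0807). H4c3 also lost its call without control embryo 2 (adjusted p = 0.0683) or control embryo 13 (adjusted p = 0.0544), and H1f2 without control embryo 2 (adjusted p = 0.0578). H3c15, a histone gene outside that list, was 6.32 and 7.85 against 9.08, 9.19 and 9.17 (-2.06, SE 0.49, adjusted p = 0.0393). Its knockout arrays lay far apart, and it was not called without knockout embryo 10 (-1.30, adjusted p = 0.468), control embryo 2 (adjusted p = 0.094), control embryo 13 (adjusted p = 0.0796) or control embryo 15 (adjusted p = 0.11). Histone messengers mostly lack poly(A) tails and their copies are nearly identical, so probe sets can share signal.

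Of 22 G1/S and E2F genes 3 were called, where 2.56% of all genes were. Ccnd2, cyclin D2, rose by 1.07 (SE 0.19, adjusted p = 0.00842), and the CDK inhibitor genes Cdkn2d and Cdkn2c fell by 1.24 (SE 0.16, adjusted p = 0.000722) and 1.0 (SE 0.24, adjusted p = 0.0444). Cdkn2d was 7.98 and 8.56 against 9.65, 9.32 and 9.54, below all controls, and was 3.31 higher in mature than in early control cells. Cdkn2c was not called without knockout embryo 10 (-0.63, adjusted p = 0.477), control embryo 2 (adjusted p = 0.139), control embryo 13 (adjusted p = 0.0544) or control embryo 15 (adjusted p = 0.134). Of 38 DNA replication genes limma called 0, and 6 at an unadjusted p under 0.05 (median -0.19). Of 22 genes of nucleotide synthesis it called 0, and 3 unadjusted (median -0.03). Among 32 mitosis genes 31 were below 0, the median was -0.27, and Cdc25c, the phosphatase that starts mitosis, was the single call (-0.52, SE 0.13, adjusted p = 0.0488). It was called without control embryo 13 and not without knockout embryo 10 (adjusted p = 0.262), knockout embryo 11 (adjusted p = 0.0563), control embryo 2 (adjusted p = 0.126) or control embryo 15 (adjusted p = 0.192).

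Lists of cell death and of protein and energy production had 0 or 1 call each. Over all genes 2.56% were called, and lists this small would hold few calls at that share. In limma 0 genes passed among 14 of the BCL2 family (median -0.04), 19 of necroptosis and inflammatory death (0.09) and 23 of p53 and its targets (0.12), where 3, 1 and 6 had an unadjusted p under 0.05. Likewise 0 passed among 38 cytosolic ribosomal proteins (median 0.02) and 40 genes of the mitochondrial respiratory chain (-0.19), with 2 and 7 unadjusted. Of 29 genes of ribosome biogenesis Polr1a, the largest subunit of RNA polymerase I, rose by 0.53 (SE 0.13, adjusted p = 0.0488). It was called without knockout embryo 10 and not without knockout embryo 11 (0.36, adjusted p = 0.144), control embryo 2 (adjusted p = 0.171), control embryo 13 (adjusted p = 0.0601) or control embryo 15 (adjusted p = 0.114). At this number of arrays many small differences escape the test: of changes of 0.5 log2 units placed in simulated data of this design, 22% were called, against 78.8% of changes of 1. The simulated spread was the same in every group. The real knockout arrays were less alike than the controls, so these shares may not hold for them.

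**Figure D4:**
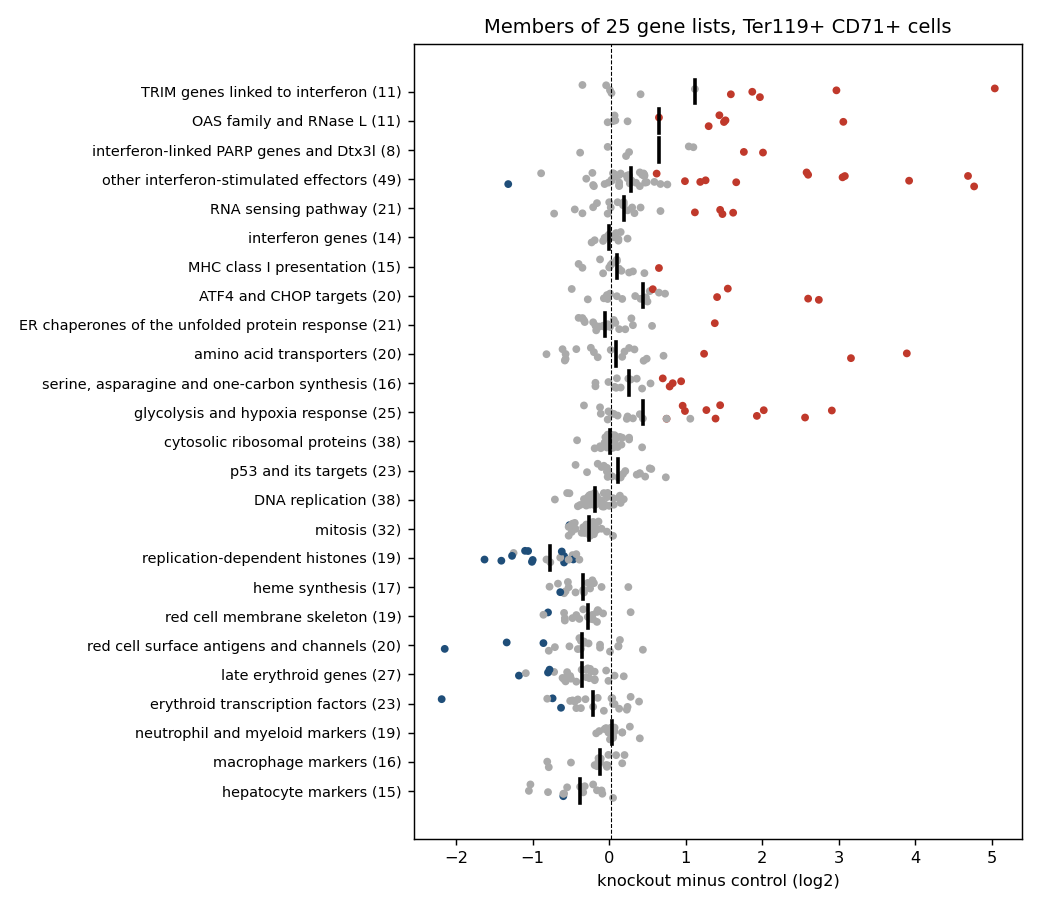
Knockout minus control difference (horizontal axis, log2) of each measured member of 25 gene lists in Ter119+ CD71+ cells, with red points higher, blue points lower, grey points not called, black bars the list medians and the dashed line the median of all genes. The interferon-linked TRIM genes (median 1.12) and the histone genes (median -0.77) lie at opposite ends, and the list sizes stand in parentheses.

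Markers of other blood and stromal cells gave 1 call, where 2.56% of all genes were called. At that share lists this small would hold few calls. The neutrophil and myeloid list had 0 of 19 genes called in limma, 0 at an unadjusted p under 0.05, a median of 0.03, and list means of 5.45 and 5.25 in the knockout arrays against 5.22, 5.33 and 5.37 in the controls. Macrophage markers had 0 of 16 called and 2 unadjusted (median -0.11; means 5.23 and 5.17 against 5.31, 5.44 and 5.34). Among megakaryocyte (10), lymphoid (13) and mast cell markers (8) 0 were called and 5, 1 and 2 passed unadjusted, with medians of -0.02, 0.07 and 0.15. Of 9 endothelial markers Egfl7 rose by 0.53 (SE 0.12, adjusted p = 0.0267), where the list's median was -0.04. Egfl7 was called without control embryo 15 and not without knockout embryo 10 (adjusted p = 0.0856), knockout embryo 11 (adjusted p = 0.0669), control embryo 2 (adjusted p = 0.0758) or control embryo 13 (adjusted p = 0.0828).

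The knockout effect was then set beside that in Ter119- CD71+ cells, from 3 knockout and 3 control arrays. No array is shared between these comparisons, but the embryos are, apart from knockout embryo 1. In the less mature cells 441 genes were called (2.21%), and 150 were called in both, 29.4% of the calls in Ter119+ CD71+ cells and 34.0% of those in Ter119- CD71+ cells, all in the same direction. The difference between the effects, tested as an interaction, was called for 2 of 19938 genes (0.01%, with 1087 at an unadjusted p under 0.05), so for nearly all genes a call in 1 population alone does not show a difference. Ifit1 rose by 2.98 here and was 0.67 (SE 0.30, adjusted p = 0.311) in the less mature cells, and the difference of 2.31 did not pass (adjusted p = 0.172). Rsad2 was 2.98 against 0.92 (difference 2.06, adjusted p = 0.355). For Sp100 the effects were 4.77 and 3.49 (adjusted p = 0.172 for the difference), and for Slc7a3 3.16 and 3.29. Among the decreases Ier3 was -1.49 against 0.03 (difference -1.51, adjusted p = 0.172) and Slc22a21 -1.76 against 0.07 (difference -1.83, adjusted p = 0.18).

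**Figure D5:**
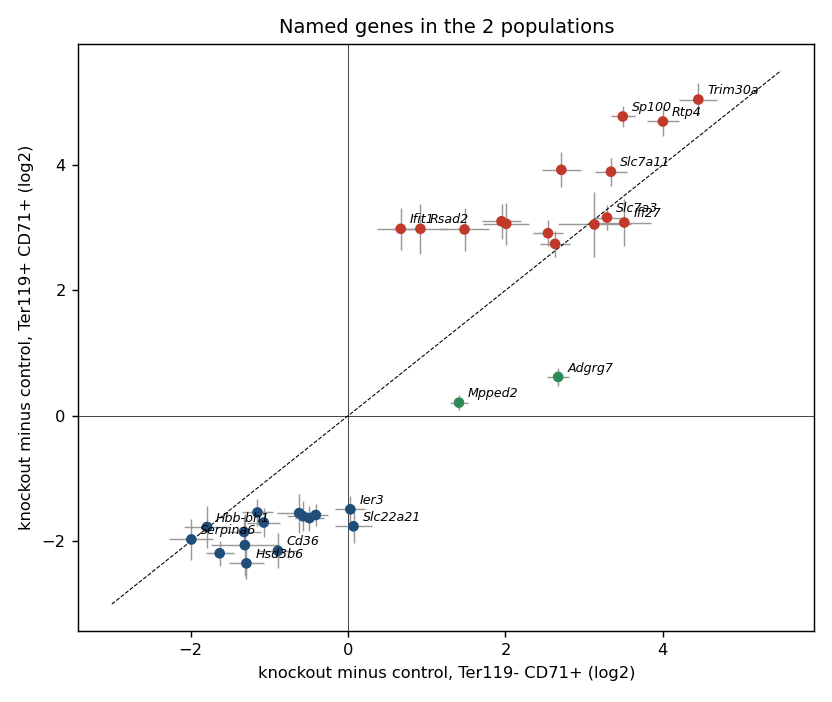
Knockout minus control difference in Ter119+ CD71+ cells (vertical axis, log2) against that in Ter119- CD71+ cells (horizontal axis, log2) for the 15 largest increases (red), the 15 largest decreases (blue) and the 2 genes whose effects differ (green), with bars of 1 SE. On the dashed line both effects are equal, and Ifit1 (2.98 against 0.67) and Adgrg7 (0.62 against 2.67) lie on opposite sides of it.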

How the data were processed

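The authors deposited log2 signals, and the submitters' processing notes name RMA, without a version, and mm9, without a role. Values were used as deposited. Of 35556 probe sets, 21789 were listed with 1 gene symbol, 1621 with several and 12146 with none, and the last 2 kinds were tested apart. The platform's gene table gave the symbols. For 999 genes with several probe sets the one with the highest mean over 13 arrays was kept, leaving 19938 genes. At least 1 probe set was called for 42 genes with several, of which 19 had all called and 5 had opposite signs.

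limma 3.58.1 in R 4.3.3 was fitted to 13 arrays with 5 group means (8 residual and 5.56 prior degrees of freedom). Two-sided p values took the Benjamini-Hochberg adjustment over all genes, with calls at an adjusted p under 0.05. Omissions left out each of the 5 Ter119+ CD71+ arrays in turn. Where this left 1 knockout array, it was assumed to vary like the other groups. The arrays are separate embryos, whose number limits the precision. Knockouts and controls share no embryo, so no block pairs them. Deviations from the group means, compared within an embryo, had correlations of -0.225 to 0.35 (9 pairs, 4 above 0.1).

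The members and the 55 gene lists (1013 of 1148 entries measured) were chosen with earlier results of these data known. Named were Adar, the 15 largest called changes in each direction with separate groups, at most 5 genes per list, those of smallest adjusted p, and the genes whose effects differ between populations. Other named genes were chosen after their values were seen. The fit was tested on simulated data, where 34 of 98690 unchanged genes were called. The simulated noise was independent between arrays, with the same spread per gene in every group. The real knockout arrays were less alike than the controls, so that share may not hold for them. Alternatives were the R26 EYFP covariate, array weights, embryo blocks, an intensity trend, the mean of probe sets, median centring, another quantile normalization, fewer genes, fewer arrays and a minimum fold. Tables were handled in Python 3.11.15 with pandas 2.3.3 and numpy 2.4.6, and plots were drawn with matplotlib 3.10.9.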

Additional observations from a re-analysis of the deposited data

Results flagged for a closer look

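The knockout effect differed between Ter119+ CD71+ and Ter119- CD71+ cells for Adgrg7 and Mpped2, in limma's test of the difference itself. Adgrg7, an adhesion G protein-coupled receptor gene, was 0.62 (SE 0.15, adjusted p = 0.0507) in Ter119+ CD71+ cells, with knockout arrays at 5.91 and 5.46 and controls at 5.09, 4.92 and 5.18. In Ter119- CD71+ cells it rose by 2.67 (SE 0.14, adjusted p = 1.9e-07). The difference of -2.05 (SE 0.21, adjusted p = 0.00278) was called under every alternative tried, with adjusted p up to 0.0377 with embryo as a fixed block. Mpped2, a metallophosphoesterase gene, was 0.21 (SE 0.12, adjusted p = 0.553) in Ter119+ CD71+ cells and rose by 1.41 (SE 0.11, adjusted p = 7.74e-06) in Ter119- CD71+ cells, a difference of -1.20 (SE 0.16, adjusted p = 0.0393). The Mpped2 difference was not called with the R26 EYFP covariate (adjusted p = 0.107), array weights (0.163), embryo as a fixed block (0.113, against 0.0387 as a random block), median centring (0.105), another quantile normalization (0.116) or the 4 groups alone (0.0682). It was also lost without the knockout Ter119- CD71+ array of embryo 1 (0.107) or 11 (0.0995), any of the 3 control Ter119- CD71+ arrays (0.161, 0.124 and 0.0772), or the Ter119+ CD71+ array of knockout embryo 10 (0.122) or control embryo 13 (0.0754) or 15 (0.0665).

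Probe sets that the gene comparison did not use also carried signal. Of 1621 probe sets listed with several symbols, limma called 6 between knockout and control Ter119+ CD71+ cells, all higher, by 1.75 to 2.78, and 175 at an unadjusted p under 0.05. Of 12146 with no listed gene it called 39, of which 11 were higher and 28 lower, from -3.10 to 2.09, and 1171 at an unadjusted p under 0.05. No group held 4 or more arrays, so single arrays were not examined for lying far from their group.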

How the results depend on the processing

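Of the 138 genes given with values 117 were called, and 73 of these stayed called in each of the 5 omissions. All 117 kept their sign under the settings run (14, or 13 for the 4 dim genes Trim30d, Oas1b, Oas1c and Ddx60). The knockout and control arrays of every called gene were separate, so leaving out an array could not turn the sign. The 510 calls (295 higher, 215 lower) became 17 (17 and 0) with the R26 EYFP covariate, where all 510 kept their sign, 128 (91 and 37) with array weights, 116 (90 and 26) with the 5 arrays alone and 24 (22 and 2) with a minimum log2 fold change of 1; omissions gave 162 to 1546 calls, 135 to 592 higher and 27 to 954 lower. Median centring gave 360 calls. The difference of effects, with 2 calls, had 1 with array weights, median centring, another quantile normalization or the 4 groups alone, and 1 to 12 in the omissions. With embryo as a fixed block, which only this contrast allows, it had 4, of which 1 was shared; as a random replicate block it had 2 and the knockout comparison 510. The maturation position difference of -0.073 was -0.165 to 0.018 in the omissions. Signs turned for Adar (0.05: -0.15 with the EYFP covariate, -0.08 with array weights, -0.01 median centred, -0.16 to 0.31 in the omissions), Slc4a1 (0.05 with the EYFP covariate) and Ifit2 (-0.85 to 0.12 in the omissions, above 0 without knockout embryo 10). The cause was not tested.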

Other observations

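Some of the larger changes fell outside the lists described above, and were chosen after their values were seen. Among the genes called in all 5 omissions, Ak4, an adenylate kinase gene of mitochondria, was 7.38 and 7.0 in knockout embryos 10 and 11 against 4.99, 5.22 and 5.02 in control embryos 2, 13 and 15 (2.11, SE 0.16, adjusted p = 8.63e-06 in limma). Ndufa4l2, a mitochondrial gene known to be induced by hypoxia, was 7.35 and 7.64 against 5.78, 5.97 and 5.94 (1.6, SE 0.22, adjusted p = 0.00154). In both genes the controls lay close together and both knockouts well above them. Tmem67, a gene of the ciliary transition zone, rose by 2.62 (SE 0.25, adjusted p = 8.46e-05), the lipase gene Gdpd1 by 2.44 (SE 0.36, adjusted p = 0.0021), Prelid2 by 2.13 (SE 0.26, adjusted p = 0.000575) and the kinase gene Stk32a by 1.86 (SE 0.17, adjusted p = 5.19e-05). Tet2, which encodes an oxidase of methylcytosine, rose by 1.57 (SE 0.24), with knockout arrays at 8.03 and 6.95. Ddx60, a helicase gene that interferon induces, rose by 1.30 (SE 0.16, adjusted p = 0.000575), and Stat6 by 0.76 (SE 0.13). Jun, the AP-1 subunit gene, rose by 1.43 (SE 0.24, adjusted p = 0.00536) and was not called without knockout embryo 10 (1.41, adjusted p = 0.0668).

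Among decreases outside the lists, Rgl1, a Ral exchange factor gene, was 5.86 and 6.04 against 7.38, 7.15 and 7.64 (-1.44, SE 0.20, adjusted p = 0.00143), and Kctd14 was -1.37 (SE 0.16, adjusted p = 0.000394). Pik3r1, the regulatory subunit of PI3 kinase, was 9.31 and 9.75 against 10.43, 10.66 and 10.74 (-1.08, SE 0.16, adjusted p = 0.00186). Lgals1, which encodes galectin-1, was 10.34 and 10.58 against 11.32, 11.53 and 11.48 (-0.98, SE 0.11, adjusted p = 0.000359), where the galectin gene Lgals9 rose by 2.58. All 4 stayed called in the 5 omissions, and both knockout arrays lay below the 3 controls in those with array values given.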
